A study of Rattus norvegicus with 107 samples.

Results

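Transcripts of the rat colon and of the rat brain at weaning age, postnatal day (PND) 22, were read in 12 samples, 6 of the 53 colon samples and 6 of the 54 brain samples of the series. The samples were taken by their labels alone, as every colon and every brain sample of that age. Both groups came from Sprague Dawley rat pups 22 days old, for which the labels name no treatment and no genetic change. The colon group was colon tissue, from intestine rinsed with cold buffer, and the brain group was the right hemisphere. Each sample was hybridized to 1 Illumina RatRef-12 BeadChip array of 22523 bead-bound probes. The wider study followed both tissues from embryonic day 21, which it calls PND -1, to PND 22, and its colon samples at PND -1 (n = 5) and brain samples at PND -1 (n = 6) are used below to ask which of the differences were already present before birth. The sources used here do not state whether a sample pools pups, whether a colon and a brain sample with the same number came from 1 pup, or which litters were sampled, so that p-values measure the spread between these samples, which may be technical in part.

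The colon absorbs salt and water through a single layer of epithelial cells, which carry a brush border and are joined by tight junctions. Goblet cells among them secrete mucus, enteroendocrine cells release peptide hormones, and stem cells at the base of the crypts renew the sheet within days. Below the epithelium lie connective tissue, lymphoid cells, layers of smooth muscle and the enteric nervous system. The brain is built of neurons, which signal through synapses, of astrocytes, which take up transmitter and regulate ions, and of oligodendrocytes, which wrap axons in myelin, a process that in the rat runs mainly through the suckling weeks. Genes of general cell upkeep, often called housekeeping genes, are used by both tissues, and many of them serve as references in expression studies. The comparison asks which genes were found in 1 tissue alone and how far the housekeeping genes stood at equal levels in both.

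Levels are normalized bead signals, brought to a common distribution over all arrays (quantile normalization), and differences are colon minus brain on the log2 scale with their standard error (SE), so that a positive value means higher in colon and a value of 1 means 2-fold. A gene was called different at an adjusted p under 0.01 from limma over all probes. A probe was detected in a sample where its detection p against the negative control beads was under 0.05, and between 10416 and 12100 probes were detected per colon array, against 11280 to 11760 per brain array. The lowest normalized signal that counted as detected ranged over the arrays between 66.1 and 72.2 in colon and between 67.1 and 68.6 in brain. Where samples of the tissue with the lower signal lay at or below that limit, a difference is a fitted value whose size rests in part on background. The number of arrays limits the precision. Signals of different probes are not comparable with each other, so levels are compared only between tissues, gene by gene. In whole tissue, fewer cells of a type and less RNA per cell cannot be told apart.

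The markers of both tissues were found where the labels put them. Of 11 colon epithelial markers, 9 had a named probe and all 9 were higher in colon, as were 22.8% of all named genes. Their summed signal was 70107 to 82054 in colon (median 71605), against 809 to 985 in brain (median 872), where Krt20, Cdh17, Vil1, Lgals4 and Slc26a3 were detected in no sample. The 6 neuronal markers summed to 527 to 1208 in colon (median 607), against 23638 to 29329 in brain (median 26376). Camk2a was detected in no colon sample. The astrocyte markers Gfap, Aqp4 and Slc1a2 summed to 209 to 293 in colon, against 2864 to 3738 in brain, and the oligodendrocyte markers Mbp and Mog to 105 to 135 in colon, against 4097 to 6415 in brain. Leukocyte markers (Ptprc, Cd3e and Cd79b) summed to 249 to 342 in colon, against 183 to 205 in brain. The choroid plexus markers summed to 192 to 391 in colon, against 2141 to 3202 in brain, and the 2 pituitary markers with a probe stayed between 132 and 173 in either tissue.

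Some colon samples carried transcripts known from the pancreas and from the liver. Of 15 pancreatic acinar genes, whose products are digestive enzymes, 14 were called higher in colon, and Pnlip, pancreatic lipase, had a difference of 1.70 ± 0.62 (adjusted p = 0.0343), which passed without colon sample 5 (adjusted p = 0.00103) or 6 (adjusted p = 0.0071). The calls of Prss2 and Ctrb1 were lost without colon sample 1, 3 or 4 (adjusted p between 0.01005 and 0.014), and that of Prss2 without brain sample 5 (adjusted p = 0.01054). Scaling to the median took the calls of Prss2, Ctrb1, Ctrc and Ctrl and left 10 of the 15 higher in colon, and limma with a trend and robust variances took also those of Cpb1, Cel and Clps and left 7 (adjusted p of the lost calls between 0.0117 and 0.0284 with the trend). The summed signal of the 15 genes in colon samples 1 to 6 was 21237, 63619, 44725, 21409, 1983 and 3187, against 1971 to 2415 in brain. Colon samples 1 to 4 were thus far above brain, and sample 5 lay within the brain range. Cpa1, carboxypeptidase A1, had signals of 1221, 4672, 3198, 1371, 119.6 and 207 in colon samples 1 to 6, against 55.9 to 78.4 in brain, while in the 47 colon samples of other ages it lay between 51.8 and 410.1 (median 74.1). Without colon samples 1 to 4, 9 of the 15 were still called higher in colon, and the difference of Cpa1 was 1.31 in place of 3.86. Pnlip then stood at -0.61 (adjusted p = 0.00922), higher in brain. Of the 9 liver secretory genes, 0 were called, and their summed signal was 7487 in colon sample 5 and 1698 in colon sample 1, against 546 to 580 in the other 4 colon samples and 558 to 620 in brain. Alb, serum albumin, had signals of 519.8, 59.1, 55.4, 48.1, 2553 and 53.8 in colon samples 1 to 6. Haemoglobin and red cell genes summed to 4291 to 8844 in colon, against 37198 to 42616 in brain. Both sets of marker genes for pancreas and liver were listed after their values were seen, and the part of these transcripts in other results was not tested, beyond the counts without colon samples 1 to 4 given below.

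**Figure D1:**
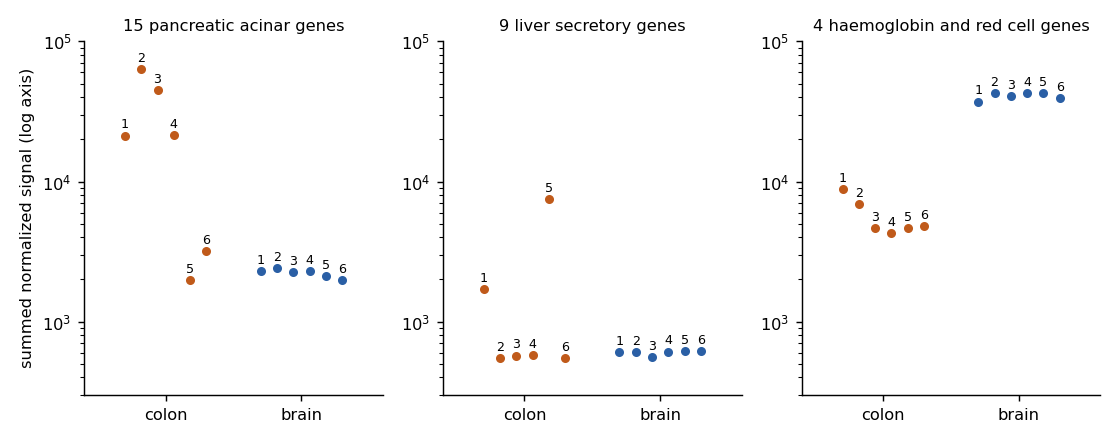
Summed normalized signal (log axis) of 15 pancreatic acinar, 9 liver secretory and 4 red cell genes in each of the 6 colon and 6 brain samples of PND 22, numbered by sample. Colon samples 1 to 4 stand far above brain in the pancreatic sum, colon sample 5 stands highest in the liver sum, and all brain samples stand above all colon samples in the red cell sum.

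Colon and brain differed at 8298 of 22523 probes (36.8%), with 4122 probes higher in colon (18.3%) and 4176 higher in brain (18.5%). Past 2-fold there were 1653 probes higher in colon (7.34%) and 1717 higher in brain (7.62%). The 6 colon samples all lay above the 6 brain samples at 3582 probes (15.9%) and all below at 3653 (16.2%). Such a separation gives p = 0.00216 in a two-sided exact permutation test, the smallest that 6 samples against 6 allow. Quantile normalization gives every array 1 distribution, so that the near-equal counts of both directions are no result. Arrays correlated with r of 0.969 to 0.987 among colon samples, 0.983 to 0.994 among brain samples and 0.758 to 0.791 between tissues (across probes, which are not independent replicates). Leaving out colon samples 1 to 4 gave a count of 7386, of which 3749 were higher in colon and 3637 higher in brain. One probe was read for each of the 13337 named genes, the brightest over the 12 samples, and 3043 genes were higher in colon (22.8%), 2995 higher in brain (22.5%) and 7299 not called (54.7%).

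**Figure D2:**
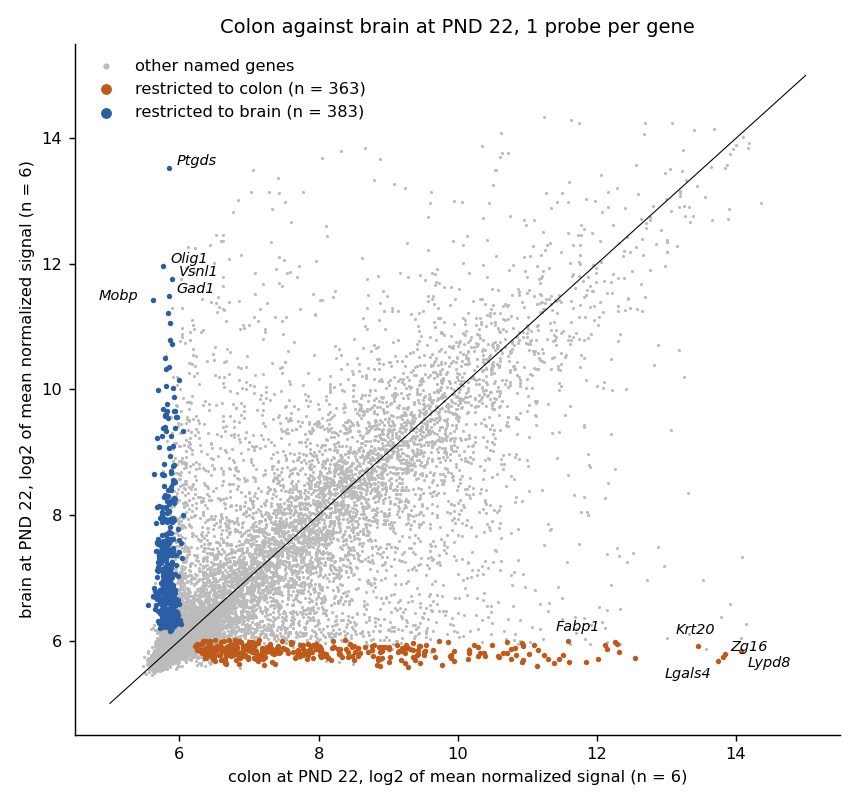
Mean normalized signal (log2) of 13337 named genes in colon (x axis) and brain (y axis) at PND 22, 1 point per gene, with the line of equal level. The 363 genes restricted to colon (orange) lie along the bottom edge and the 383 restricted to brain (blue) along the left edge, each at the detection limit of the other tissue.

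A gene was termed restricted where it was called, detected in 6 of 6 samples of 1 tissue and detected in 0 of 6 of the other. By this rule 494 probes (2.19%) were restricted to colon and 581 (2.58%) to brain, and they named 363 and 383 genes. Since the other tissue then gives only a limit, the fold is stated as a lower bound, the mean log2 signal of the tissue with the transcript against each array's detection limit in the other. The bound had a median of 2.68-fold over the colon-restricted genes and 1.71-fold over the brain-restricted genes. With colon samples 1 to 4 left out, where only 2 colon samples have to agree, 565 probes were restricted to colon and 1106 to brain.

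The 10 colon-restricted genes with the highest bounds were mostly genes of the epithelium. Lypd8, a mucosal protein that keeps bacteria away from the epithelium, had signals of 12868 to 19856 (median 17556) in colon, against 49.97 to 66.5 (median 57.4) in brain. All colon samples were above all brain samples, and the level was at least 249.5-fold higher in colon. S100g, the calcium-binding protein calbindin of the intestine, had signals of 11614 to 17490.1 (median 15543) in colon, against 47.5 to 65.4 (median 56.00) in brain, at least 214-fold higher in colon. Zg16, a lectin of the mucus, had signals of 12610.3 to 18864 (median 13492) in colon, against 46.8 to 57.6 (median 55.4) in brain, at least 209-fold higher in colon. The 6 colon samples were far above the detection limit for these 3 genes, and no brain sample reached it. Lgals4, a galectin of the gut, was at least 202-fold higher, Krt20, the keratin of mature intestinal epithelium, at least 161-fold, and the serine protease gene Prss32 at least 86.7-fold. Fam3d, a secreted protein of the gut, followed with at least 74.4-fold, the liver-type fatty acid-binding protein gene Fabp1 with at least 72.1-fold, Vil1, which bundles actin in the brush border, with at least 71.6-fold, and the gut cadherin gene Cdh17 with at least 66.3-fold. Of the 363 colon-restricted genes, 8 were among the 15 pancreatic genes (Cel, Cela2a, Cela3b, Clps, Pnliprp1, Pnliprp2, Prss1 and Prss3b).

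Other colon genes had larger fitted differences than some of these but were detected in at least 1 brain sample. Car1, the carbonic anhydrase of the colon surface, had signals of 13569 to 21725 (median 16859) in colon, against 60.3 to 70.2 (median 66.8) in brain, a difference of 8.01 ± 0.09. Agr2, which folds mucin, stood at 7.71 ± 0.08, the keratin genes Krt19 and Krt8 at 7.88 ± 0.07 and 7.34 ± 0.10, and the adhesion gene Epcam at 7.21 ± 0.08. For Agr2, brain sample 3 had a signal of 70.9 and the other brain samples 51.9 to 58.3, below the detection limit. Guca2a, the precursor of guanylin, stood at 6.95 ± 0.10, Lgals3, a galectin, at 6.76 ± 0.09 and the calcium-binding protein gene S100a6 at 6.57 ± 0.07. For each of these 8 genes the 6 colon samples lay above the 6 brain samples. Actg2, the actin of gut smooth muscle, was the only muscle gene among the 15 largest differences, with 7.39 ± 0.11.

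The start regions of 2 colon-restricted genes are shown because they hold, in the window read here, letters of short motifs known from promoters. The sequences run 5′ to 3′ on the gene's strand, from 250 bases before to 50 bases after the start that RefSeq gives in GRCr8, with motif matches in capitals: the TATA box TATAAA in both and, in Fabp1, the CDX-type motif TTTATG on the reverse strand, which reads CATAAA here. The 2 motifs differ in their letters, so 1 match never counts for both. The Krt20 window is chr10:84890236-84890535 on the minus strand, and its TATA box begins 49 bases before the start. The Fabp1 window is chr4:104749090-104749389 on the plus strand, and its TATA box begins 40 bases and its CDX-type match 98 bases before the start.
Krt20: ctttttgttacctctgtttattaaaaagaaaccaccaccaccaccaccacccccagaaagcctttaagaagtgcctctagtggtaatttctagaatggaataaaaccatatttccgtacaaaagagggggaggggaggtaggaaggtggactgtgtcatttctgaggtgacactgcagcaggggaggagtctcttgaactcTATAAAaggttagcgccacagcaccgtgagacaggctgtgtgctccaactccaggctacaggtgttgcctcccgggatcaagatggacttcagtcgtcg
Fabp1: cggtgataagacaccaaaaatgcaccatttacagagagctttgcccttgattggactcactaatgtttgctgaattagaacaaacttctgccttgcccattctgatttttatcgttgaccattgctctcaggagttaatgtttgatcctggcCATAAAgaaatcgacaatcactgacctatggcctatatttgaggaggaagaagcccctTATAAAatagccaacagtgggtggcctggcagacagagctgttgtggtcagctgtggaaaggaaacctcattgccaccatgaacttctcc
Of the 363 colon-restricted genes, 268 had a window in the RefSeq table, and 15.7% of them held TATAAA and 13.4% TTTATG on either strand. Over all 27457 windows the shares were 14.3% and 12.5%, and over the 10976 windows of named array genes 12.1% and 9.75%. A match is a description of these letters and no binding site.

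Ptgds, the prostaglandin D synthase of the meninges and of glia, led the brain-restricted genes. Its signals were 53.7 to 62.1 (median 57.96) in colon, against 10839 to 12730.00 (median 11819) in brain, at least 169-fold higher in brain. Olig1, a transcription factor of the oligodendrocyte lineage, had signals of 44.6 to 67.6 (median 53.5) in colon, against 3730.1 to 4214 (median 4019) in brain, at least 57.5-fold higher in brain. Vsnl1, a neuronal calcium sensor, had signals of 54.8 to 65.9 (median 57.9) in colon, against 2698 to 3806 (median 3698) in brain, at least 49.3-fold higher in brain. The 6 colon samples were at or below the detection limit for all 3 genes. Gad1, which makes the inhibitory transmitter GABA, was at least 41.1-fold higher in brain, the GABA-B receptor subunit gene Gabbr2 at least 34.2-fold and the myelin genes Mobp at least 39.3-fold, Mog at least 30.5-fold and Cldn11 at least 20.3-fold. Lamp5, a membrane protein of neurons, and Sez6, which shapes dendrites, were at least 25.4-fold and at least 24.3-fold higher in brain.

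Among brain genes that colon also showed above background in some samples, Mt3, the metallothionein of the nervous system, had signals of 99.8 to 178 (median 127) in colon, against 10302 to 12477 (median 11866) in brain. The groups were far apart, with a difference of -6.46 ± 0.11. Snap25, a fusion protein of synaptic vesicles, had signals of 85.4 to 238 (median 111) in colon, against 7686 to 11025 (median 8969.6) in brain, a difference of -6.21 ± 0.19. Aldoc, the aldolase of astrocytes, stood at -6.17 ± 0.10, the myelin gene Mal at -6.12 ± 0.12, the synaptic vesicle gene Syp at -6.09 ± 0.16 and the splicing regulator gene Rbfox1 at -5.94 ± 0.09. Snurf, from an imprinted locus, stood at -6.02 ± 0.16, Stmn3, a microtubule regulator of neurons, at -5.92 ± 0.15, Atp6v1g2, a proton pump subunit of neurons, at -6.02 ± 0.09, and the glutamate receptor subunit gene Gria2 at -5.85 ± 0.09. In each of these 10 genes every colon sample lay below every brain sample.

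The windows of 2 brain-restricted genes are shown for the matches they hold. Cacng3, which encodes a subunit that accompanies glutamate receptors and was at least 9.29-fold higher in brain, holds the left part of the RE1 element, TTCAGCACC, 2 times, beginning 206 and 134 bases before the start. RE1 is the element through which the repressor REST is known to silence neuronal genes outside the nervous system. Neurod6, a neuronal transcription factor gene that was at least 11.1-fold higher in brain, holds the cAMP response element TGACGTCA beginning 53 bases before the start. The windows are chr1:186632312-186632611 on the plus strand and chr4:86180106-86180405 on the minus strand of GRCr8, with the matches in capitals.
Cacng3: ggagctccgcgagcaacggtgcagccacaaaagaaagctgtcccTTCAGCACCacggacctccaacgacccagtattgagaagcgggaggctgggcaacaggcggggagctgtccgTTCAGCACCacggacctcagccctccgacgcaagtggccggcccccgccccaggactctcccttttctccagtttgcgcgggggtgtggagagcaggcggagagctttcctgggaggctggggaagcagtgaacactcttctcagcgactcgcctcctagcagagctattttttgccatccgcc
Neurod6: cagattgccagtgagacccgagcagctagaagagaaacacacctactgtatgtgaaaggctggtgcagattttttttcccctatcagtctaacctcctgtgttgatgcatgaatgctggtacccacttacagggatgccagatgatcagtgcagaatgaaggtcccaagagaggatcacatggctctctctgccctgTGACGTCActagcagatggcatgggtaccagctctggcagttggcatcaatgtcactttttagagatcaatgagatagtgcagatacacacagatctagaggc
The RE1 left part was found on either strand in 1.69% (5) of the 296 windows of brain-restricted genes. Its share was 0.373% of the 268 of colon-restricted genes, 0.379% of all 27457 and 0.465% of the 10976 of named array genes. The cAMP response element was found in 2.7%, 1.49%, 1.91% and 2.54% of the same sets, so that the brain-restricted share stood near that of named array genes. TATAAA was found in 7.09% of the brain-restricted windows and TTTATG in 6.08%, against 12.1% and 9.75% of the windows of named array genes. The longer HNF1-type motif was found in 0 windows of either set and in 0.00364% of all windows.

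**Figure D3:**
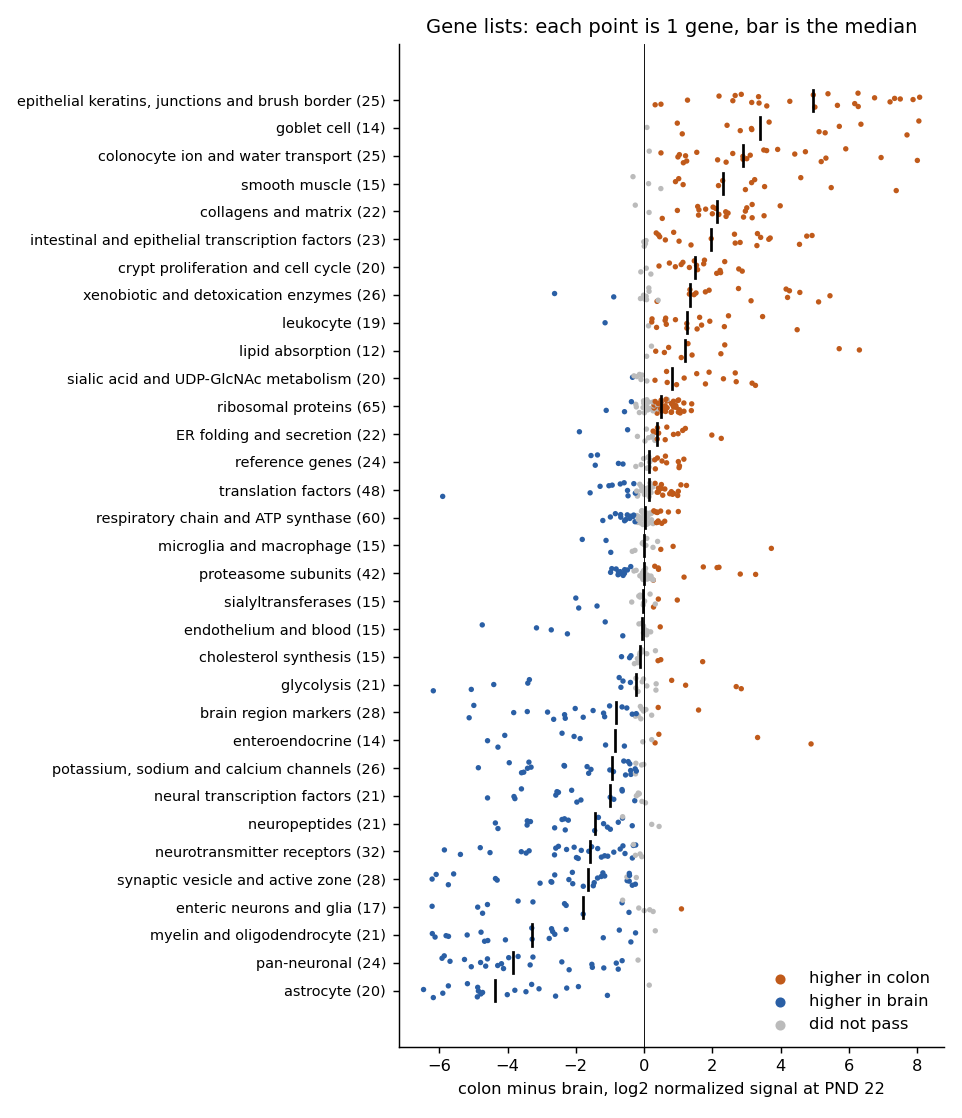
Colon minus brain difference (log2) of every measured gene of 33 lists at PND 22, coloured by call, with the number of genes in brackets and a bar at the median. Lists of epithelium, goblet cells, muscle and matrix lie to the right, lists of neurons and glia and the enteroendocrine list (median -0.85) to the left, and the medians of the lists of cell upkeep between -0.24 and 0.49.

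All 25 measured genes of the list of epithelial keratins, junctions and brush border were higher in colon, with a median difference of 4.96, against 0.01 over all 13337 named genes. Of all named genes 22.8% were higher in colon and 22.5% in brain, and these shares are the background for the counts of every list below. The 13337 genes include 2671 that were detected in no sample of either tissue. Lists of mostly detected genes are thus set against a wider set, and a gene not called may lie at background in both tissues. Cldn3, a tight junction gene, was at least 65.1-fold higher in colon, and E-cadherin, Cdh1, at least 28.5-fold higher in colon. Cdhr5, a cadherin that ties microvilli together, stood at 5.67 ± 0.08, and Spint2, an inhibitor of membrane proteases, at 4.96 ± 0.07. Myo1a, the motor of the microvillus, was at least 8.94-fold higher in colon. The smallest differences were those of the junction gene Cldn15, 0.50 ± 0.08, and of the adhesion gene Ceacam1, 0.33 ± 0.08, whose call was lost after scaling to the 75th percentile (adjusted p = 0.0215).

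Salt and water transport genes of the surface colonocyte were higher in colon in 24 of 25 cases (median 2.90). Slc9a3, the apical sodium-proton exchanger, had signals of 3372 to 5327 (median 4405) in colon, against 69.7 to 78.3 (median 72.7) in brain, a difference of 5.91 ± 0.09, with no overlap. Slc26a3, the chloride-bicarbonate exchanger, had signals of 1564 to 1756 (median 1662) in colon, against 60.3 to 65.8 (median 63.1) in brain and was at least 24.5-fold higher in colon. The colonic proton-potassium pump gene Atp12a was at least 27.8-fold higher in colon, and the pump regulator gene Fxyd4 at least 32.2-fold higher in colon. Of the sodium channel subunits, Scnn1a stood at 4.42 ± 0.15 and Scnn1g at 0.50 ± 0.09, while Scnn1b was at least 4.80-fold higher in colon. Hsd11b2, which shields the mineralocorticoid receptor from glucocorticoids, was at least 6.34-fold higher in colon, the water channel gene Aqp8 at least 4.32-fold higher in colon and Slc5a8, a carrier of short-chain fatty acids, at least 8.77-fold higher in colon. Car2 and Car4, further carbonic anhydrases, were detected in all 12 samples and stood at 2.16 ± 0.10 and 2.90 ± 0.11. The bicarbonate carrier gene Slc4a4, which astrocytes also use, had a difference of 0.15 ± 0.18 (adjusted p = 0.568).

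Goblet cell genes were higher in colon in 13 of 14 cases (median 3.41), the exception being the kallikrein gene Klk1. Spink4, a protease inhibitor of goblet cells, stood at 6.36 ± 0.14, and the mucus protein gene Clca1 at 5.31 ± 0.09. Tff3, trefoil factor of the mucus, had signals of 4214 to 5220.1 (median 4490.3) in colon, against 295 to 477 (median 339.6) in brain, a difference of 3.67 ± 0.10. Pigr, which carries antibodies across the epithelium, was at least 38.8-fold higher in colon, Fut2, which adds fucose to mucus glycans, at least 6.74-fold higher in colon, and Atoh1, the factor that specifies secretory cells, at least 1.84-fold higher in colon. Enzymes of detoxication were higher in colon in 15 of 26 cases and in brain in 2 (median 1.34), against 22.8% and 22.5% of all named genes. Those higher in colon included Gpx2, the glutathione peroxidase of the gut, at 5.45 ± 0.18 and Cyp3a9, a cytochrome P450, at 4.21 ± 0.11. Sult1b1, a sulfotransferase, was at least 14.4-fold higher in colon and Ugt1a1, a glucuronosyltransferase, at least 13.96-fold higher in colon. Gstm1, a glutathione transferase, was higher in brain at -2.62 ± 0.10, as was the cytochrome P450 gene Cyp4f4. Lipid absorption genes were higher in colon in 10 of 12 cases, with Fabp2, the intestinal fatty acid-binding protein, at least 42.4-fold higher in colon and Cpt1a, which admits fatty acids to the mitochondrion, at 2.25 ± 0.10.

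Transcription factors of the gut and of epithelia were higher in colon in 19 of 23 cases (median 1.97). Klf5 and Klf4, of the proliferating and of the maturing epithelium, stood at 4.92 ± 0.17 and 4.77 ± 0.12, and both were also detected in all brain samples. Elf3, an epithelial factor, was at least 19.3-fold higher in colon. The posterior patterning genes Hoxa7, Hoxb7 and Hoxd10 were at least 9.61-fold higher in colon, at least 9.08-fold higher in colon and at least 8.77-fold higher in colon. Cdx2, the homeobox factor of intestinal identity, had signals of 488 to 812 (median 702) in colon, against 62.3 to 73.7 (median 66.6) in brain, a difference of 3.31 ± 0.10, with no overlap. Nr1h4, the bile acid receptor, was at least 5.46-fold higher in colon, and Hnf4a, an intestinal and hepatic factor, at least 1.27-fold higher in colon. Grhl2, Foxa1, Barx1 and Gata4 were not called, and 3 of the 23 genes of the list were detected in no sample of either tissue.

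Smooth muscle genes were higher in colon in 12 of 15 cases (median 2.31), and their spread among colon samples was wide. Des, desmin, had signals of 5022, 10940.3, 2597, 2928, 1781 and 2581 in colon samples 1 to 6, against 73.7 to 85.97 in brain, a difference of 5.49 ± 0.31. Colon sample 2 was more than 2-fold above the other 5. Tagln, which binds actin, and Flna, filamin A, stood at 4.59 ± 0.30 and 3.53 ± 0.27. Tpm1, a tropomyosin, had a difference of -0.32 ± 0.27 (adjusted p = 0.408), and the other 2 genes not called were Csrp1 and Lmod1. Collagens and matrix genes were higher in colon in 20 of 22 cases (median 2.15), led by Postn at 3.99 ± 0.22, Col3a1 at 3.52 ± 0.21 and Col1a1 at 2.92 ± 0.24. Sparc, a matrix protein that glia also make, had a difference of -0.26 ± 0.24 (adjusted p = 0.453), and without colon samples 1 to 4 Sparc and Tpm1 were called higher in brain, at -0.90 (adjusted p = 0.0016) and -0.91 (adjusted p = 1.38e-05).

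Genes of the dividing cell were higher in colon in 17 of 20 cases (median 1.51). Cdk1, the kinase of mitosis, had signals of 468 to 807 (median 547) in colon, against 78.4 to 89.98 (median 82.7) in brain, a difference of 2.78 ± 0.10. Ccnb2, its cyclin partner, stood at 2.88 ± 0.09, the nucleotide enzyme gene Rrm2 at 2.37 ± 0.11, and Pcna, the sliding clamp of replication, at 0.74 ± 0.10. The crypt stem cell genes Lgr5 and Ascl2 were not called. Leukocyte genes were higher in colon in 17 of 19 cases (median 1.25). Ccl20, a chemokine of the epithelium over lymphoid follicles, was at least 18.4-fold higher in colon, RT1-Da, a class II antigen-presenting gene, stood at 3.48 ± 0.13, and the T cell receptor gene Cd3g was at least 4.84-fold higher in colon. Coro1a, an actin regulator of leukocytes that neurons also use, was higher in brain, with a difference of -1.14 ± 0.11.

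Neuronal genes were higher in brain in 23 of 24 cases (median -3.83). Nrgn, a calmodulin-binding protein of dendrites, had signals of 141 to 364 (median 269) in colon, against 10002 to 15098 (median 13145) in brain, a difference of -5.69 ± 0.18. Rtn1, a reticulon, stood at -5.26 ± 0.19, the neuronal enolase gene Eno2 at -5.06 ± 0.15, Nefl, the light neurofilament, at -4.79 ± 0.23 and Gap43, of growing axons, at -4.64 ± 0.20. All of these were detected in the 6 colon samples too, and the colon samples lay below the brain samples in each. Rbfox3 was not called. Synaptic vesicle and active zone genes were higher in brain in 26 of 28 cases (median -1.63). Dnm1, the dynamin that cuts vesicles from the synaptic membrane, stood at -5.73 ± 0.13, and the calcium sensor gene Syt1 at -5.58 ± 0.20. Of the vesicular glutamate transporter genes, Slc17a6 stood at -4.30 ± 0.11, while Slc17a7 was at least 3.74-fold higher in brain. Sv2a and Sv2b were not called.

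Neurotransmitter receptor genes were higher in brain in 28 of 32 cases, and 15 of the 32 were restricted to brain (median -1.58, over all named genes 2.87% were restricted to brain). The GABA-A subunit gene Gabrb1 was at least 18.9-fold higher in brain, and the glutamate receptor subunit gene Grin1 stood at -4.80 ± 0.09. Ion channel genes were higher in brain in 22 of 26 cases, of which 11 were restricted (median -0.95). Kcnc2, a potassium channel of fast-firing neurons, stood at -4.85 ± 0.11, and the sodium channel gene Scn1a was at least 12.5-fold higher in brain. In both lists no gene was called higher in colon. Neural transcription factor genes were higher in brain in 15 of 21 cases, with Neurod1 at -4.59 ± 0.12 and Zic2 at least 9.43-fold higher in brain. The activity-driven genes Npas4, Nr4a1 and Egr3 were not called, while Egr1 had a difference of -1.97 ± 0.14.

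Astrocyte genes were higher in brain in 19 of 20 cases, with the lowest median of all lists, -4.37. Slc1a3, which takes up glutamate, had signals of 86.3 to 114 (median 97.4) in colon, against 4548 to 7232 (median 4993) in brain, a difference of -5.73 ± 0.10. Apoe, the lipid carrier of glia, stood at -4.88 ± 0.20, Clu, clusterin, at -4.01 ± 0.14 and Gfap, the intermediate filament of astrocytes, at -4.73 ± 0.14. The water channel gene Aqp4 was at least 5.24-fold higher in brain. Myelin and oligodendrocyte genes were higher in brain in 20 of 21 cases (median -3.28). Mbp, myelin basic protein, had signals of 52.1 to 73.6 (median 66.5) in colon, against 2348 to 4238 (median 3450.2) in brain, a difference of -5.73 ± 0.12, and Cnp, an enzyme of myelin, stood at -4.58 ± 0.11. Pllp, plasmolipin, which epithelia also make, had a difference of 0.33 ± 0.14 (adjusted p = 0.0697) and was called higher in colon without colon samples 1 to 4, at 0.61 (adjusted p = 0.00224). Of 28 markers of brain regions 18 were higher in brain, 2 were higher in colon and 8 were not called (median -0.83). Past 2-fold, 14 were higher in brain and 1 was higher in colon. Those higher in brain included the cerebellar gene Pcp2, at least 11.4-fold higher in brain, the hypothalamic peptide gene Pmch, at least 8.26-fold higher in brain, and the choroid plexus gene Ttr, with -4.99 ± 0.28.

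Peptide and granule genes are shared by gut endocrine cells and neurons, and their calls ran both ways. Of 14 enteroendocrine genes, 4 were higher in colon and 8 in brain. Gcg, which encodes glucagon-like peptides, had signals of 1032 to 2928 (median 1912) in colon, against 60.7 to 68.2 (median 61.7) in brain and was at least 27.4-fold higher in colon. Pyy, peptide YY, had signals of 338 to 741 (median 664) in colon, against 49.9 to 65.7 (median 58.8) in brain and was at least 8.64-fold higher in colon. Every colon sample was above every brain sample in these 2 genes, and no brain sample detected them. Cck, cholecystokinin, an intestinal hormone and also a cortical transmitter, had signals of 144 to 312 (median 194) in colon, against 3232 to 4632 (median 4085) in brain, a difference of -4.28 ± 0.16 in favour of brain. Sst, somatostatin, stood at -2.40 ± 0.11, and the granule protein genes Chga and Chgb at -0.58 ± 0.11 and -1.13 ± 0.12. Of 21 neuropeptide genes 18 were higher in brain and 0 in colon, with Pcsk1n, a regulator of prohormone cleavage, at -4.36 ± 0.20, Npy, neuropeptide Y, at -3.43 ± 0.13 and Penk, proenkephalin, at -3.33 ± 0.16.

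The enteric nervous system shares most of its markers with the brain, and of 17 genes of enteric neurons and glia 11 were higher in brain, 1 was higher in colon and 5 were not called. Prph, peripherin, the filament of peripheral neurons, had signals of 221 to 751 (median 302) in colon, against 119.9 to 238 (median 171) in brain. The samples overlapped, and the difference was 1.10 ± 0.24 (adjusted p = 0.00121) or, without colon samples 1 to 4, 0.61 (adjusted p = 0.0277). After scaling to the median Prph did not pass either (adjusted p = 0.0138). Vip, a peptide of enteric neurons and cortical interneurons, had signals of 157 to 625 (median 222) in colon, against 357 to 466 (median 369) in brain, a difference of -0.63 ± 0.25 (adjusted p = 0.0579). Colon sample 2 carried the highest signal, and without that sample Vip was called higher in brain at -0.90 (adjusted p = 5.43e-05). Hand2, Phox2a, Nos1 and Ret, which mark enteric neurons, were not called.

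Of 15 microglia and macrophage genes 3 were higher in colon, 3 in brain and 9 were not called, near the shares over all named genes (22.8%, 22.5% and 54.7%), with a median of 0.00. Cd14, a receptor for bacterial lipopolysaccharide, had signals of 787 to 1124 (median 889) in colon, against 61.6 to 74.7 (median 68.3) in brain, a difference of 3.73 ± 0.08, with no overlap. Trem2 and P2ry12, receptors of microglia, were higher in brain, with -1.81 ± 0.08 for Trem2, while P2ry12 was at least 1.84-fold higher in brain, and Aif1 stood at -0.97 ± 0.11. Of 15 genes of vessels and blood, 6 were higher in brain and 1, Ly6c, in colon. Hba-a1, an alpha globin, had signals of 2255 to 4865 (median 2691) in colon, against 18864 to 20723 (median 20289.6) in brain, and Hbb, a beta globin, of 1761 to 3852 (median 2096) in colon, against 18179 to 21725 (median 21725) in brain. The groups did not overlap, and the differences were -2.72 ± 0.15 and -3.15 ± 0.15. The signal of 21725 is the highest that the normalization gives, so the level of Hbb in brain has no upper bound here. Slco1c1, the thyroxine carrier of brain vessels, stood at -4.74 ± 0.08, and Cldn5, the tight junction gene of endothelium, at -2.25 ± 0.10. The general endothelial genes Tie1 and Esam were at -0.05 ± 0.07 (adjusted p = 0.621) and 0.19 ± 0.08 (adjusted p = 0.0601).

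Many genes commonly used as references differed between colon and brain. Of 24 such genes, 10 were higher in colon, 5 were higher in brain and 9 were not called (over all named genes 22.8%, 22.5% and 54.7%). Ywhae, Hprt1 and Ywhaz stood furthest towards brain. Ywhae, an adaptor protein like Ywhaz, had signals of 2475 to 2732 (median 2553) in colon, against 6627 to 8287 (median 7646) in brain, a difference of -1.55 ± 0.06. Hprt1, of purine salvage, had signals of 662 to 1053 (median 780.1) in colon, against 1972 to 2360.4 (median 2111) in brain, a difference of -1.43 ± 0.09. Rps18, of the small ribosomal subunit, had signals of 12373 to 17490.1 (median 15192) in colon, against 5661 to 7269 (median 6769) in brain, a difference of 1.17 ± 0.08. Ywhaz stood at -1.36 ± 0.10, and in none of these 4 genes did the samples of colon and brain overlap. Gusb, a lysosomal glucuronidase, stood at 1.04 ± 0.09, B2m, the light chain of class I antigen-presenting proteins, at 1.03 ± 0.08 and Rpl13a at 1.01 ± 0.08.

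Smaller differences that passed were those of Ppib (0.66 ± 0.08), Tubb5 (0.63 ± 0.13), Rpl19 (0.53 ± 0.07), Sdha (0.39 ± 0.07), Actb (0.33 ± 0.08) and Rplp0 (0.32 ± 0.06), higher in colon, and those of Ppia (-0.75 ± 0.10) and Pgk1 (-0.62 ± 0.07), higher in brain. Actb, beta actin, had signals of 15779 to 20723 (median 18673) in colon, against 13276 to 17231 (median 14117) in brain, and samples of the 2 tissues overlapped. Without colon samples 1 to 4 the calls of Actb (adjusted p = 0.212), Tubb5 (adjusted p = 0.0743) and Rplp0 (adjusted p = 0.0118) were lost, and Hsp90ab1 was called higher in brain (adjusted p = 0.0086). After scaling to the median, the calls of Tubb5 (adjusted p = 0.0264), Ppia (adjusted p = 0.0828) and Pgk1 (adjusted p = 0.0526) were lost. Gapdh, of glycolysis, had signals of 2961 to 3959.9 (median 3419) in colon, against 3224 to 4829 (median 4175) in brain, a difference of -0.24 ± 0.10 (adjusted p = 0.0679). Its direction turned when arrays were scaled to their median (0.12, adjusted p = 0.493) or to their 75th percentile (0.14, adjusted p = 0.49). The TATA-binding protein gene Tbp had signals of 211 to 233 (median 222) in colon, against 192 to 222 (median 204) in brain, a difference of 0.11 ± 0.06 (adjusted p = 0.131). Eef1a1 stood at 0.15 ± 0.09 (adjusted p = 0.241), Atp5f1b at 0.08 ± 0.08 (adjusted p = 0.45), Hsp90ab1 at -0.08 ± 0.09 (adjusted p = 0.538), Psmb2 at 0.16 ± 0.07 (adjusted p = 0.055), Rps29 at -0.01 ± 0.12 (adjusted p = 0.956) and Tfrc at 0.14 ± 0.13 (adjusted p = 0.45). Rpl32 stood at 0.19 ± 0.06 (adjusted p = 0.0118) and passed without colon sample 2 (adjusted p = 0.00992) or 6 (adjusted p = 0.00713). Scaling to the median or the 75th percentile made Eef1a1, Atp5f1b and Rpl32 pass as higher in colon, with adjusted p of 5.81e-04, 0.0054 and 1.47e-05 for the median. A p that misses the threshold does not show equal levels.

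**Figure D4:**
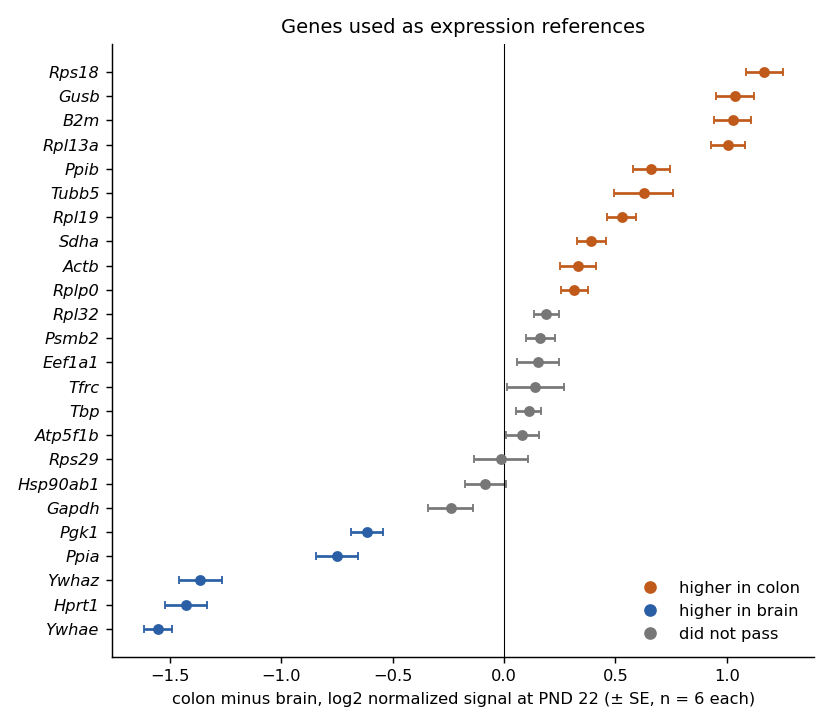
Colon minus brain difference (log2) of 24 genes used as expression references at PND 22, with the standard error from limma (n = 6 samples each). The differences run from -1.55 for Ywhae to 1.17 for Rps18, and 9 of the 24 did not pass the test.

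Ribosomal protein genes were shifted towards colon. Of 65 measured, 39 were higher in colon, 3 in brain and 23 were not called, with a median of 0.49. Over all named genes the shares were 22.8%, 22.5% and 54.7%. Rps12 had signals of 3162 to 3685 (median 3445) in colon, against 1177 to 1489.5 (median 1287) in brain, a difference of 1.40 ± 0.07, and Rpl22 of 5809 to 7397 (median 6329) in colon, against 2336 to 2523 (median 2461) in brain, a difference of 1.39 ± 0.06. Rpl22l1, the near relative of Rpl22, ran the other way, with signals of 136 to 167 (median 156) in colon, against 298 to 381 (median 324) in brain and a difference of -1.11 ± 0.08. The other genes higher in brain were Rps24 (-0.37 ± 0.10) and Rpl15 (-0.57 ± 0.06). The call of Rps24 was lost without colon sample 2 (adjusted p = 0.0102), colon sample 3 (adjusted p = 0.0113), brain sample 5 (adjusted p = 0.0126) or colon samples 1 to 4 (adjusted p = 0.0908) and with the authors' normalized values (adjusted p = 0.018). Of the 65, 35 were higher in colon without colon samples 1 to 4. The count was 50 after scaling to the median, 51 after scaling to the 75th percentile and 45 with the authors' normalized values. It thus depends on the normalization. Genes of protein folding and export in the endoplasmic reticulum were higher in colon in 13 of 22 cases and in brain in 2 (median 0.37). P4hb, a protein disulfide isomerase, had signals of 4316 to 4497 (median 4391) in colon, against 908 to 1294 (median 1142) in brain, a difference of 1.99 ± 0.07, and the chaperone partner gene Dnajc3 stood at 2.26 ± 0.07. Sec11c, of the signal peptidase, was higher in brain at -1.89 ± 0.09, and the chaperone genes Hspa5, Hsp90b1 and Calr were not called.

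Of 42 proteasome genes 10 were higher in colon, 12 in brain and 20 were not called, with a median of -0.01, and over all named genes the shares were 22.8% and 22.5%, so that the counts stand near the background. The inducible subunits of the immunoproteasome and its activator were among the genes higher in colon. Psmb8 had signals of 819.7 to 1238 (median 947) in colon, against 82.8 to 121 (median 104) in brain, a difference of 3.27 ± 0.11, Psmb9 stood at 2.82 ± 0.09, and the activator genes Psme1 and Psme2 at 2.14 ± 0.07 and 2.20 ± 0.07. In all 4 the samples did not overlap. The 12 genes higher in brain were standard subunits and an assembly factor with differences between -0.39 and -0.98. Psmc5, a subunit of the regulatory particle, stood at the far end with signals of 297 to 393 (median 329.7) in colon, against 596 to 727 (median 662) in brain. Translation factors were higher in colon in 16 of 48 cases and in brain in 11. The elongation factor gene Eef1a2, the form of neurons and muscle, had signals of 72.1 to 159.9 (median 83.5) in colon, against 4846 to 6347 (median 5663) in brain, a difference of -5.90 ± 0.16. Among initiation factor genes, Eif4e2 stood at 1.24 ± 0.07, Eif4a2 at -1.29 ± 0.07 and Eif1b at -1.58 ± 0.08.

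Respiratory chain and ATP synthase genes were spread around 0, with 12 of 60 higher in colon, 14 higher in brain, 34 not called and a median of 0.02, shares near those over all named genes (22.8% and 22.5%). Sdhd, of complex II, had the largest difference towards colon, 1.005 ± 0.07, and all 4 subunits of complex II (Sdha, Sdhb, Sdhc and Sdhd) were higher in colon. Cox6a2, known as the heart and muscle form of a cytochrome oxidase subunit, was higher in brain at -1.21 ± 0.09. Of the 27 complex I subunit genes of the list 10 were higher in brain, 1 in colon and 16 were not called. The groups of complex I and of complex II were both singled out from the list after their values were seen. Genes of glycolysis were higher in colon in 4 of 21 cases and in brain in 9. Hk2, a hexokinase, had signals of 379 to 600.4 (median 439) in colon, against 64.5 to 82.96 (median 70.6) in brain, a difference of 2.70 ± 0.11, and Eno3, the enolase of muscle, stood at 2.85 ± 0.21. Pfkm, the phosphofructokinase of muscle and brain, had signals of 84.7 to 113 (median 104) in colon, against 1019.8 to 1158 (median 1026) in brain, a difference of -3.41 ± 0.07, and the pyruvate kinase gene Pkm stood at -3.36 ± 0.10. Gpi and Tpi1 stood at -0.68 ± 0.08 and -0.73 ± 0.12, and both lost their call after scaling to the median (adjusted p = 0.0989 and 0.254). Cholesterol synthesis genes were called in 6 of 15 cases, 3 each way, again near the background, with Ebp, a sterol isomerase, at 1.72 ± 0.08 and Msmo1, a sterol oxidase, at -0.66 ± 0.09. The call of Msmo1 was lost after scaling to the median (adjusted p = 0.0273).

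Pairs of related genes were listed for their known sites of expression, 1 member known from epithelium or general use and 1 from brain, so that opposite calls were what the choice favoured and their count is a description. Of 40 such pairs, 26 had a probe for both members, and in 14 of these the first member was higher in colon and the second higher in brain. In 6 pairs both were called the same way, and in 6 at least 1 was not called. Fabp1 had signals of 3401 to 7088 (median 4689) in colon, against 55.2 to 67.8 (median 62.3) in brain, and Fabp7, the form of radial glia, of 71.6 to 122 (median 77.97) in colon, against 4548 to 5579.97 (median 5130.1) in brain. The pair thus ran in opposite directions with no overlap in either gene. Of the lactate dehydrogenases, Ldha had signals of 2682 to 3839.8 (median 3667) in colon, against 1262 to 1771 (median 1472) in brain and Ldhb of 183 to 534 (median 232) in colon, against 4579 to 6726 (median 5429) in brain, differences of 1.22 ± 0.10 and -4.40 ± 0.20. Of the ADP/ATP carriers, Slc25a5 stood at 0.95 ± 0.10 and Slc25a4 at -3.07 ± 0.23. In the machinery of membrane fusion and fission Vamp8 stood at 2.48 ± 0.09 and Vamp2 at -2.10 ± 0.09, Stx3 at 0.63 ± 0.09 and Stx1a at -1.36 ± 0.09, Sypl1 at 1.08 ± 0.08 and Syp at -6.09 ± 0.16, and Dnm2 at 1.47 ± 0.12 and Dnm1 at -5.73 ± 0.13. The calcium-binding proteins S100a6 and S100b stood at 6.57 ± 0.07 and -4.87 ± 0.16, and the tubulins Tubb6 and Tubb3 at 1.26 ± 0.24 and -3.26 ± 0.08. Opposite calls were also found for Rab27b and Rab3a, Ugt1a6 and Ugt8, Aqp8 and Aqp4, Des and Gfap, and Krt8 and Nefl.

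In some of the other pairs the first member was not called and the second was higher in brain. Eef1a1 and the enolase gene Eno1 (0.35 ± 0.13, adjusted p = 0.0423) were not called while Eef1a2 and Eno2 were higher in brain. Eno1 passed as higher in colon without brain sample 6 (adjusted p = 0.00522). Pfkl was at 0.36 ± 0.16 (adjusted p = 0.0821) while Pfkm was higher in brain. Car1 and Car2 were both higher in colon, as were Actg2 and Actb, and Lgals4 and Lgals1. Chga and Chgb were both higher in brain, as were Camk2d and Camk2a, and Atp1b3 and Atp1b2. The remaining pairs, Gjb2 and Gja1, Slc2a2 and Slc2a3, and Gpx2 and Gpx3, held at least 1 gene that was not called.

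Sialic acid (Sia) is made from UDP-GlcNAc, and the genes of both routes, which the study set out to follow, were higher in colon in 13 of 20 cases and in brain in 1 (median 0.82). Over all named genes the shares were 22.8% and 22.5%. Genes of Sia synthesis differed in the size of the gap. GNE, the key enzyme of Sia synthesis, had signals of 1125 to 1502 (median 1344) in colon, against 137 to 157 (median 143) in brain, a difference of 3.17 ± 0.08, and NANS, the Sia synthase, of 457 to 735 (median 616) in colon, against 107.4 to 134 (median 123) in brain, a difference of 2.33 ± 0.10. The probe of Cmahp, which stands for CMAH, the hydroxylase that makes Neu5Gc, had signals of 399 to 706 (median 513) in colon, against 46.6 to 60.6 (median 53.2) in brain and was at least 7.50-fold higher in colon. No overlap was seen in these 3 genes. Slc35a3 and Slc35a1, Golgi carriers of UDP-GlcNAc and CMP-Sia, stood at 2.67 ± 0.07 and 1.54 ± 0.08, the pyrophosphorylase gene Uap1 at 1.91 ± 0.09 and its relative Uap1l1 at 0.66 ± 0.09. GFAT, read from Gfpt1, stood at 1.80 ± 0.08, the acetyltransferase gene Gnpnat1 at 0.68 ± 0.08, and CMAS, which activates Sia, at 0.95 ± 0.08. The phosphatase gene Nanp, of the last step to free Sia, had a difference of -0.09 ± 0.08 (adjusted p = 0.425).

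Of the genes of Sia release and reuse, Neu1, the lysosomal sialidase, had signals of 201 to 433 (median 303) in colon, against 122 to 157 (median 131) in brain, a difference of 1.18 ± 0.15. Npl, the Sia lyase, was the only gene of the list higher in brain, with signals of 124 to 149 (median 142) in colon, against 160.2 to 208 (median 170.1) in brain and a difference of -0.34 ± 0.07 (adjusted p = 9.01e-04), a call lost without colon samples 1 to 4 (adjusted p = 0.0446), in 1 fit over all arrays of the series (adjusted p = 0.16) and after scaling to the median (adjusted p = 0.0169). NAGK, the GlcNAc kinase, stood at 0.32 ± 0.08 (adjusted p = 0.00246), a call lost after scaling to the median (adjusted p = 0.0152). The Sia transporter gene Slc17a5 had a difference of -0.13 ± 0.07 (adjusted p = 0.172) and the epimerase gene Renbp of -0.05 ± 0.09 (adjusted p = 0.722). Among the remaining genes of the list, Ogt, which attaches GlcNAc to proteins, stood at -0.21 ± 0.09 (adjusted p = 0.0883) and Pgm1 at -0.29 ± 0.09 (adjusted p = 0.0156), and each was called higher in brain when 1 colon sample was left out, sample 1 for Ogt (adjusted p = 0.00581) and sample 3 for Pgm1 (adjusted p = 3.31e-04). The hexokinase gene Hk3 had a difference of 0.08 ± 0.06 (adjusted p = 0.355).

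Sialyltransferases add Sia to glycans, and B4galnt1 builds the gangliosides that carry it. Of the 15 genes read, 3 were higher in colon, 3 in brain and 9 were not called, shares near those over all named genes (22.8%, 22.5% and 54.7%). St6galnac1, which sialylates mucin, had signals of 78.2 to 139 (median 90.8) in colon, against 47.3 to 53.9 (median 50.4) in brain and was at least 1.45-fold higher in colon. St6galnac2 and St3gal1 were also higher in colon, with differences of 0.42 ± 0.09 and 0.28 ± 0.07, both not called without colon samples 1 to 4 (adjusted p = 0.0452 and 0.0649), and St3gal1 also not after scaling to the 75th percentile (adjusted p = 0.0731). B4galnt1 had signals of 79.2 to 98.8 (median 82.1) in colon, against 254 to 414 (median 317) in brain, a difference of -1.91 ± 0.10, St6galnac3 stood at -1.999 ± 0.10, and St3gal2 at -1.38 ± 0.12. St6gal1, the main enzyme of terminal sialylation on N-glycans, had signals of 195 to 349 (median 267) in colon, against 317 to 356 (median 334) in brain, a difference of -0.36 ± 0.12 (adjusted p = 0.0201), and passed as higher in brain without colon sample 2 (adjusted p = 0.0019). St3gal4 stood at 0.33 ± 0.14 (adjusted p = 0.0753) and passed as higher in colon without colon sample 4 (adjusted p = 0.00872). The polysialyltransferase gene St8sia2 and the genes St8sia1, St8sia4, St8sia6, St3gal3, St3gal6 and St6gal2 had differences between -0.15 and 0.18 and were not called.

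The difference at PND 22 was then set against that at PND -1, in 1 fit over the 23 samples of both ages, to find genes whose gap between colon and brain had moved. It had moved at 4511 of 22523 probes (20.0%), towards colon at 2246 (9.97%) and towards brain at 2265 (10.1%). At PND -1 itself 6956 probes (30.9%) were called between the tissues. A gap is termed widened where it had moved towards the tissue that stood higher at PND 22, even where the direction had turned since PND -1. Of the 13337 named genes, 5198 (39.0%) were called at PND -1, and 2471 (18.5%) were called at PND 22 with a widened gap. Called at both ages in opposite directions were 207 (1.55%). The pups of PND -1 came from 1 dam, so that age and dam cannot be told apart. Colon sample 4 of PND -1 stood apart from the other 4 in transcripts of neurons and glia. The neuronal markers summed to 5302 in it and to 958 to 1055 in the other 4 colon samples, against 10473 to 12474 in brain at that age, the astrocyte markers to 651 and to 177 to 193, against 441 to 634 in brain, and the oligodendrocyte markers to 412 and to 111 to 137, against 121 to 147 in brain. Its colon epithelial markers summed to 37281, within the range of the other 4 (32579 to 38914). Nrgn had a signal of 2914 in that sample and of at most 127 in the other 4. Without it 7168 probes were called at PND -1, the gap had moved at 4462 probes (2170 towards colon and 2292 towards brain), and 5326, 2391 and 211 named genes took the place of 5198, 2471 and 207. The part of these transcripts in other results was not tested beyond the values without that sample.

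The largest movements towards brain were those of myelin genes. Where a tissue lay at its detection limit, the movement is a fitted value. Mal stood at 96.1 ± 68.7 in colon and 69.5 ± 6.48 in brain at PND -1 (SD, n = 5 and 6), a difference of 0.26, against 69.9 ± 8.32 in colon and 4935 ± 1007 in brain at PND 22 (SD, n = 6 each), so that its difference moved by -6.39 ± 0.30 on the log2 scale. Mobp moved by -6.25 ± 0.37, Mbp by -5.98 ± 0.30, Mog by -5.37 ± 0.29 and Ugt8, which makes the galactolipids of myelin, by -4.54 ± 0.22. Without colon sample 4 of PND -1 the movements were -6.04 ± 0.16 for Mal, -5.78 ± 0.14 for Mobp, -5.65 ± 0.17 for Mbp, -4.998 ± 0.11 for Mog and -4.42 ± 0.21 for Ugt8, all still called. Ugt8, the fifth, led Retnlb (-4.53 ± 0.21) by less than its SE, and without colon samples 1 to 4 of PND 22 Retnlb (-4.91) and Maob (-4.67) passed it (-4.66). Of the 21 myelin and oligodendrocyte genes 6 were called at PND -1, against 20 at PND 22, and the gap of 19 had widened. Without colon sample 4 of PND -1 these counts were 9 at PND -1 and 18 widened. Ugt8 had been higher in colon before birth, with a difference of 1.25, or 1.13 without that sample. By contrast, 14 of 15 smooth muscle genes were called at PND -1. The gap had moved by PND 22 for 2 of the 15, against 25.6% (3418) of the 13337 named genes. Neural transcription factors had 14 of 21 called at PND -1, against 15 at PND 22. These last counts at PND -1 and the 2 were the same without that sample.

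Towards colon, the largest movements were those of Car1, Zg16, Fabp1, Pla2g2a and Pnliprp1. Car1 stood at 66.1 ± 5.97 in colon and 63.9 ± 6.75 in brain at PND -1, at the detection limit in both tissues, against 17125 ± 2749 in colon and 65.8 ± 4.23 in brain at PND 22, and its difference moved by 7.96 ± 0.13. Zg16 moved by 6.36 ± 0.20, Fabp1 by 6.17 ± 0.18 and Pla2g2a, an antibacterial phospholipase, by 5.31 ± 0.29. Pnliprp1, which moved by 5.01 ± 0.94, is 1 of the pancreatic genes, and without colon samples 1 to 4 it moved by 1.88. Of the colonocyte transport genes the gap had widened for 19 of 25, or 18 without colon sample 4 of PND -1. Other genes ran against the general pattern and were chosen after their values were seen. Retnlb, an antibacterial protein of goblet cells, stood at 6385 ± 1068 in colon and 50.8 ± 3.32 in brain at PND -1, against 289 ± 84.4 in colon and 51.5 ± 4.66 in brain at PND 22, so that its difference moved by -4.53 ± 0.21 while colon was higher at both ages. Igf2, the fetal growth factor, stood at 8933 ± 556 in colon and 5255 ± 665 in brain at PND -1, against 264 ± 80.5 in colon and 2733 ± 186 in brain at PND 22, moving by -4.20 ± 0.19, with brain higher at PND 22. Maob, a monoamine oxidase, had a difference of 1.64 at PND -1 and of -2.80 ± 0.15 at PND 22, moving by -4.44 ± 0.35, or by -4.07 ± 0.22 from 1.27 without colon sample 4 of PND -1.

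**Figure D5:**
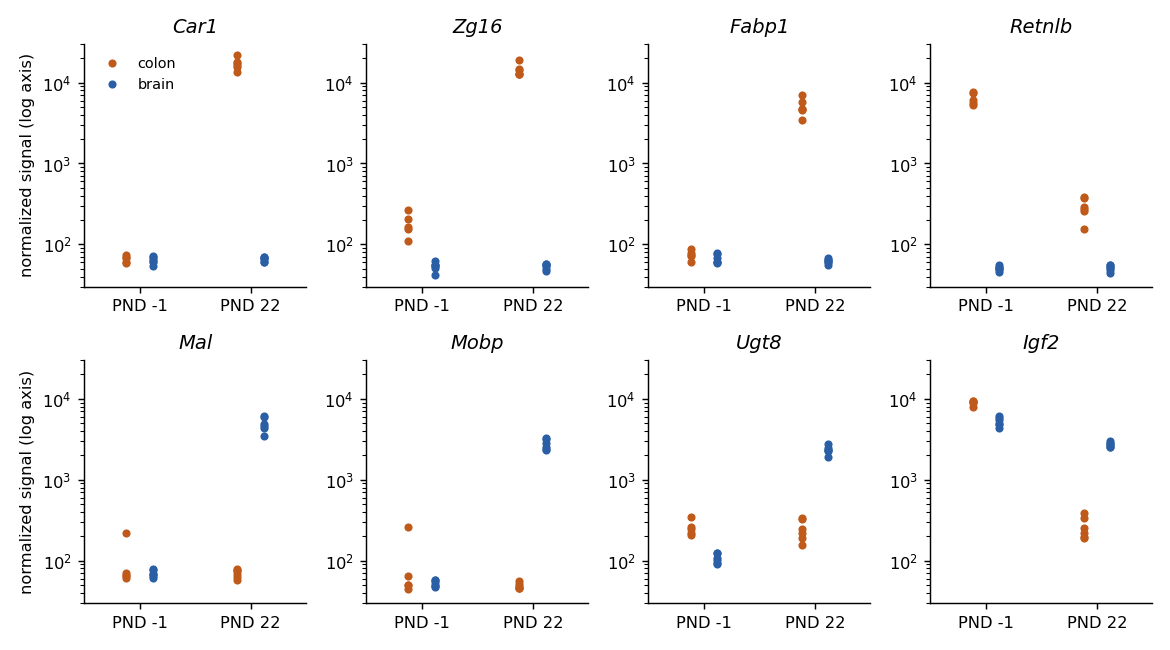
Normalized signal (log axis) of 8 genes in every colon (orange) and brain (blue) sample at PND -1 (5 colon and 6 brain samples) and PND 22 (6 each). Car1, Zg16 and Fabp1 are high only in colon at PND 22, Mal, Mobp and Ugt8 are highest in brain at PND 22, and Retnlb and Igf2 have their highest colon signals at PND -1.

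The 6 samples of a tissue were close to each other. The SD of the log2 signal had a median of 0.174 over 6672 named genes detected in all colon samples, and of 0.126 over 7097 detected in all brain samples, and it was above 1 for 19 genes in colon and 4 in brain. The 8 largest SDs in colon were all those of pancreatic genes, from Pnliprp1 (2.52) to Cel (1.85). In brain the largest were those of Rpl30 (1.68), Pxmp4 (1.22), Plekhh1 (1.15), Car3 (1.07), Ephx2 (0.881), Slc39a12 (0.779), Lgals5 (0.723) and Spp1 (0.718). Car3, a carbonic anhydrase of muscle, had a signal of 712 in brain sample 1, while the other 5 lay between 101 and 144. It had 1354 to 2272 in colon.

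Some of these genes varied alike in colon and brain samples of the same number. Rpl30, a ribosomal protein gene, had signals of 6842, 568, 3283, 722, 6254 and 4463 in colon samples 1 to 6, against 5198, 398, 2894, 488, 5377 and 3077 in brain samples 1 to 6. Samples 2 and 4 were the lowest in both tissues. Pxmp4, a peroxisomal membrane protein gene, had 85.1, 339, 447, 139.5, 331 and 76.3 in colon, against 72.1, 345, 326, 68.3, 309 and 68.7 in brain, and samples 2, 3 and 5 were the highest in both. Plekhh1 had 738, 1007, 2336, 1352, 227 and 238 in colon, against 237, 319.9, 707, 273, 89.9 and 87.8 in brain, and samples 5 and 6 were the lowest in both. Ephx2, an epoxide hydrolase gene, was likewise highest in samples 2, 3 and 5, with 118, 445, 399, 156, 408 and 146 in colon, against 82.3, 334, 217, 88.8, 212 and 84.1 in brain. Between the tissues these genes had differences of 0.40 ± 0.75, 0.32 ± 0.54, 1.68 ± 0.58 and 0.73 ± 0.41 and were not called. With the sample number as a block, an alternative to the main design, Rpl30 (adjusted p = 4.60e-04), Plekhh1 (adjusted p = 3.50e-08) and Ephx2 (adjusted p = 6.26e-06) were called higher in colon. Without the block Plekhh1 passed as higher in colon without colon sample 5 (adjusted p = 0.00802), colon sample 6 (adjusted p = 0.00882) or brain sample 3 (adjusted p = 0.00829), and without brain sample 2 the difference of Rpl30 was -0.05. These 4 genes were singled out after their values were seen, and why samples of 1 number share a pattern was not tested.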

How the data were processed

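Bead signals of 107 arrays of the RatRef-12 BeadChip were used, of which 12 of colon and brain at PND 22 carry the comparison and 11 of PND -1 the comparison of ages. The study took pups of 7 dams, those of PND -1 from 1 of them, adjusted litters to 10 pups, froze the tissue and kept RNA with an integrity number of at least 8. The deposited average bead intensities are linear, come from the scanner software (BeadStudio) that the authors used and were not normalized between arrays, as their unequal distributions show. The deposited detection p-values come from the same software and compare a probe with the array's negative controls. The authors' own quantile-normalized intensities were used as an alternative only.

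Quantile normalization over all 107 arrays was followed by a floor of 1 and log2 in R 4.3.3. The test was limma 3.58.1 (lmFit and eBayes) on the 12 arrays, with Benjamini-Hochberg adjustment over 22523 probes and a threshold of 0.01. The test was tried on simulated data first. Depth is not a property of arrays, and their number limits the precision. Symbols were taken from the platform annotation (13793 probes with 1 symbol, 8730 with none), and the brightest probe stood for each of 13337 genes. A lower bound set the mean of the detected tissue against, on each array of the other, the higher of the lowest detected signal and the probe's own. Named were the 15 largest differences each way, the 10 restricted genes of each tissue with the highest bounds, the leading members of each list, all reference, sialic acid and paralog genes, the 5 largest movements each way since PND -1 and the 8 largest SDs of each tissue. Members, lists and tests were chosen with earlier results of these data known. Promoter windows are those of RefSeq, GRCr8. Same-numbered samples did not meet the rule for pairs and were not blocked. The arrays' positions on chips are not given in the sources used here, so no chip block was fitted. Alternatives were other background corrections, scalings, filters, floors and fits, the mean of a gene's probes, and leaving out samples. The outlying colon sample 1 of PND -1, which the study dropped, was not used here.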

Additional observations from a re-analysis of the deposited data

Results flagged for a closer look

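Groups of 6 samples were searched for single samples standing apart by Dixon's test, for the genes given values in the report and for the pancreatic and liver markers. Of 550 groups, 44 held such a sample, and chance alone flags about 1 in 20 groups.

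Liver transcripts stood apart in colon sample 5. Its signals were 573 for the fibrinogen chain gene Fgg, while the other 5 colon samples had 72.3 to 139, 255 for Fgb (others 47.7 to 75.1), 510 for Serpina1 (others 56.5 to 96.8), 426 for Hp, haptoglobin (others 55.6 to 114) and 249 for Ttr, transthyretin (others 56.2 to 83.4). The cause was not tested.

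Colon sample 2, which had the highest pancreatic and desmin signals, was low for Hsd11b2 (285, others 448 to 504), Fut2 (360, others 463 to 511) and Ppib (1880, others 2290 to 2490). It was high for Rrm2 (597, others 345 to 403), Pgk1 (2280, others 1730 to 1900) and Gria2 (85.1, others 62.3 to 66.5). Colon sample 3 was low for Krt19 (15600, others 17800 to 19300) and S100b (69.4, others 91.5 to 104) and high for Nanp (108, others 79.4 to 86.3) and P2ry12 (69.8, others 54.3 to 58.3). In the remaining colon samples, Sult1b1 was low in sample 1 (763), and Slco1c1 in sample 4 (71.2), B4galnt1 in sample 5 (98.8) and Eif4e2 in sample 6 (993) were high.

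Brain sample 1 had a Car3 signal of 712, while the other 5 brain samples had 101 to 144, and was low for Mbp (2350, others 3400 to 4240), Sypl1 (403) and Fut2 (43.0) and high for Gnpnat1 (248) and St6galnac2 (67.1). Brain sample 3 was low for Nrgn (10000, others 13000 to 15100), Npy (623, others 861 to 958), Aif1 (820), Esam (119) and Clca1 (68.4) and high for Car2 (1840) and Agr2 (70.9). Brain sample 4 was high for Slc1a3 (7230, others 4550 to 5090) and low for Lamp5 (1590) and Fam3d (49.7). Brain sample 2 was high for Vip (466) and Pfkl (290) and low for Krt20 (52.8). Brain sample 5 was high for Klf5 (217) and Prss32 (61.3), and brain sample 6 was high for Psme1 (780) and Gcg (68.2) and low for Atp5f1b (10800) and Pigr (45.3). Brain values under about the detection limit, such as those of Krt20, Prss32, Fam3d, Fut2 and Pigr, are background signals.

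The difference between colon and brain changed with age for 13 genes given values in the report, by the interaction of tissue and age in limma. It moved towards colon for Car1 (7.96), Zg16 (6.36), Fabp1 (6.17), Pla2g2a (5.31) and Pnliprp1 (5.01) and towards brain for Mal (-6.39), Mobp (-6.25), Mbp (-5.98), Mog (-5.37), Ugt8 (-4.54), Retnlb (-4.53), Maob (-4.44) and Igf2 (-4.20), all in log2 units. Colon sample 4 of PND -1 carried neuronal and glial transcripts, and without it Mal, Mobp and Mog moved by -6.04, -5.78 and -4.998. Samples of PND -1 came from 1 dam, so that age and dam cannot be told apart for these genes.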

How the results depend on the processing

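The count of probes called, 8298, ranged from 7912 to 8229 when 1 sample was left out, with 3928 to 4117 higher in colon and 3984 to 4112 higher in brain. The restricted probes ranged from 497 to 542 for colon and from 587 to 732 for brain, the probes whose difference had moved since PND -1 from 4279 to 4641, and the probes called at PND -1 from 6496 to 7168, the highest without colon sample 4 of that age (the samples of PND -1 were left out of that age's own comparison after seeing the data). The 732 brain-restricted probes were those without colon sample 2, and leaving out any other single sample gave 587 to 627. The share of calls higher in colon stayed between 49.1% and 52.1% under all alternatives run. A minimum of 2-fold left 3370 probes, 1653 higher in colon and 1717 in brain, and 1636 of those that moved since PND -1. Brain-restricted probes numbered 884 when 1 detected colon sample was allowed. Without colon samples 1 to 4, an alternative chosen after seeing the data, they numbered 1106, where only 2 colon samples had to be undetected. Scaling to the median left 3 in place of 5 reference genes higher in brain. One fit over all arrays called Pnlip, Pllp, Vip, Pgm1 and Plekhh1 too.

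The sign of a few small differences turned. That of Gapdh was 0.14 after scaling to the 75th percentile and 0.12 after scaling to the median, and that of Rps29 was 0.38 and 0.36. With the authors' normalized values Rps29 stood at 0.11 and Renbp at 0.022, and with the mean of all probes Slc4a4 stood at -0.092. Alb stood at -0.18 with normexp background correction and ranged from -0.64 to 0.51 over samples left out, Rps29 from -0.081 to 0.083 and Rpl30 from -0.050 to 0.83. Without colon samples 1 to 4 Rps29 stood at 0.13 and Pnlip at -0.61. The cause was not tested.

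Replicate numbers were not treated as pairs. The deviations of same-numbered colon and brain samples correlated with r of 0.12, 0.18, 0.15, 0.11, 0.059 and 0.24 for numbers 1 to 6, and 5 of the 6 colon samples correlated best with the brain sample of their own number. With the replicate block 8434 probes were called (4187 higher in colon and 4247 in brain), and 494 and 580 were restricted to colon and brain. The block left the reference genes at 10 and 5 and moved no other count of calls by over 1.5 times. Among genes given values, it brought Eno1, Pfkl, Pllp, Pgm1, Pnlip, Plekhh1, Ephx2 and Rpl30 past the threshold. A probe not above background in a tissue has only an upper limit there, and the spread between litters was not measured.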
